A study of Homo sapiens with 10 samples.

Results

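SNB19 is a human glioblastoma cell line, and the data described here are its transcriptome after MEOX2 was silenced with siRNA. MEOX2 (Mesenchyme Homeobox 2) mRNA was targeted in 3 SNB19 samples that the labels call siMEOX2, and 3 further SNB19 samples received Scramble siRNA. Both arms were therefore transfected and differed in the siRNA alone as far as the labels state. The titles carry the code m3 for the MEOX2 siRNA, and which of the designed MEOX2 siRNAs this was, the hour of harvest and whether the 3 samples of an arm came from separate cultures are not given in the sources used here. The p-values consequently measure the spread between these samples, which may be technical. The count table listed 34567 genes, of which 32656 had at least 1 read in SNB19, and 15525 passed the low-count filter (edgeR filterByExpr) and are the members described. The counts assigned to genes came to 16560324, 13718556 and 15521318 in the Scramble libraries and 15705592, 14368062 and 14090573 in the MEOX2 siRNA libraries. The series holds 10 libraries, the other 4 being from the glioblastoma line U87 carrying a lentiviral empty vector or lentiviral MEOX2 overexpression (2 each). In those 4 the treatment labels give a different MEOX number for each sample and the bracketed replicate number of 1 title repeats, so they were grouped by the first part of the titles.

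MEOX2 is a homeodomain transcription factor, known from developing mesoderm and from vascular cells, where it restrains growth. Homeodomains bind short AT-rich DNA elements, so a loss of such a factor can in principle move direct targets and, through them, whole programmes of a cell. Several of the programmes below are named after the regulator that is known to drive them. ATF4 is a transcription factor whose translation rises when eIF2 alpha is phosphorylated, as in amino acid shortage or stress of the endoplasmic reticulum, NF-kB drives inflammatory cytokines, and the immediate early genes are the first transcriptional output of growth factor signalling.

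The knockdown was read first in MEOX2 itself (chromosome 7, 15611212 to 15686812, minus strand, GRCh38). Its level was 15.5, 16.9 and 18.1 CPM in the Scramble libraries and 3.39, 2.71 and 3.37 CPM in the MEOX2 siRNA libraries, where CPM is the read count scaled to the TMM-adjusted library size. All 3 MEOX2 siRNA libraries lay below all 3 Scramble libraries, at a log2 fold change of -2.41 ± 0.14 (SE, edgeR adjusted p = 1.35e-11), a ratio to the control of 0.188. CTSS (cathepsin S) fell by 2.40 on the log2 scale, while ANGPTL4 and IL11RA rose by 2.05 and 3.08. The study had picked CTSS, ANGPTL4 and IL11RA from these same libraries for their changes. The line was also checked against cell type markers. The glial and glioma markers VIM, CD44, SOX9, NES and SLC1A3 were expressed in every library, GFAP was low at 4.66, 4.97 and 3.96 CPM in the Scramble samples, and S100B, AQP4 and ALDH1L1 did not pass the filter. Of the microglia markers AIF1, CX3CR1, P2RY12, PTPRC and CD68 did not pass either, nor did MOG, MBP, MAG and SOX10 for oligodendrocytes, DCX for neurons, or DCN and LUM for fibroblasts. Other members of these lists did pass, however, with Scramble levels of 18.4, 21.6 and 20.9 CPM for CSF1R, 49.7, 42.9 and 45.6 CPM for MAP2, 42.7, 53.9 and 46.2 CPM for COL1A1, 39.6, 43.5 and 41.97 CPM for PDGFRB and 4.04, 3.99 and 3.89 CPM for OLIG2, and the endothelial marker PECAM1 was at 32.8, 32.9 and 36.5 CPM.

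Most of the tested transcriptome moved, mostly by small amounts. At an edgeR false discovery rate (FDR) of 0.05, 4261 genes were higher in MEOX2 knockdown cells, which is 27.4% of those tested, and 4422 were lower, which is 28.5%. At 2-fold or more the numbers were 857 higher (5.52%) and 797 lower (5.13%). These 4 percentages are the background for every count below. Of the calls, 4991 (57.5%) were under 1.5-fold, and 132 genes rose and 106 fell by 4-fold or more. The CPM of the groups did not overlap in 9534 genes (61.4%). Over all tested genes the median log2 fold change was 0.006, with quartiles of -0.32 and 0.33. Of the MEOX2 siRNA libraries, replicate 1 stood nearer to the controls. Over the 797 genes lower by 2-fold or more its median log2 ratio to the control mean was -1.23, against -1.37 and -1.39 in replicates 2 and 3. It also stood apart within its arm. The chi-square per degree of freedom between its counts and those of replicates 2 and 3 was 5.73 and 6.67. Between replicates 2 and 3 it was 2.12, and among the Scramble libraries 2.06 to 2.82.

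**Figure D1:**
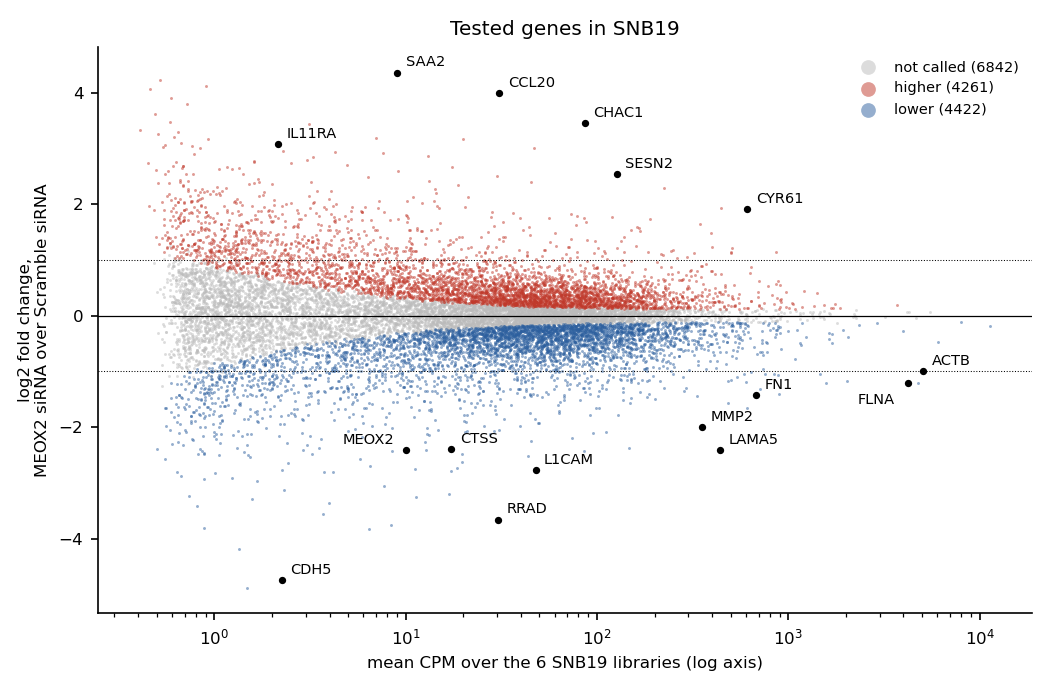
Log2 fold change (MEOX2 siRNA over Scramble siRNA) of the 15525 tested genes against their mean CPM over the 6 SNB19 libraries (log axis), with genes called at FDR 0.05 in red (higher) or blue (lower), 2-fold marked by dotted lines and 16 genes named in the text marked in black. Called genes are spread over the range of abundance, and most lie between the dotted lines.

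The largest changes were chosen among genes of at least 5 CPM on average whose groups did not overlap. Rises were largest in SAA2, CCL20, CHAC1, TEX19, IL1A, INHBE, FLRT1, IL6, DDIT3, LINC02577, SESN2 and IL24. In that order these genes ran from 4.36 down to 2.51 on the log2 scale. They hold acute phase and cytokine genes (SAA2, CCL20, IL1A, IL6, IL24) and genes of the ATF4 stress response (CHAC1, DDIT3, SESN2). INHBE, an activin subunit, went from 11.98, 9.79 and 9.17 CPM in the Scramble libraries to 70.9, 91.8 and 87.7 CPM in the MEOX2 siRNA libraries. TEX19, normally a germ cell gene, went from 0.807, 1.20 and 2.11 CPM to 13.2, 12.4 and 12.3 CPM. The largest falls were in FOXS1, PLEKHG4, RRAD, PAPLN, MMP9, ANXA8, SBSN, L1CAM, FAIM2, PTN, MYBPH and PECAM1, from -3.82 to -2.62. FOXS1, a forkhead transcription factor, was at 12.05, 14.4 and 9.70 CPM with Scramble siRNA and at 0.943, 0.812 and 0.757 CPM with MEOX2 siRNA. RRAD, a small GTPase of the RGK family, was at 55.6, 59.1 and 54.05 CPM against 5.59, 3.79 and 3.85 CPM. L1CAM, a neural cell adhesion molecule, was at 81.96, 82.3 and 86.2 CPM against 12.8, 12.4 and 11.6 CPM, and PTN, the growth factor pleiotrophin, at 31.05, 33.7 and 31.5 CPM against 5.22, 4.87 and 4.34 CPM. In each of these genes the highest knockdown library was far under the lowest control library, though groups apart were a condition of being listed. ANXA8 has a near-identical copy, as SAA2 has in SAA1, and the counting could split their reads, so the sizes of these changes are uncertain.

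Changes of at least 1.5-fold also reached genes with very many reads. With the highest mean CPM (not corrected for length), the cytoskeletal genes ACTB (fell by 0.99) and FLNA (fell by 1.21), the glycolytic enzyme PKM (fell by 1.22), ANXA2 (fell by 1.17), the chaperones HSP90AB1 (fell by 1.20) and HSPA8 (fell by 0.78), PSAP (fell by 1.05) and SQSTM1 (fell by 0.61) were lower on the log2 scale. PKM was at 6704, 6698 and 6621 CPM in the Scramble libraries and 3154, 2776 and 2688 CPM in the MEOX2 siRNA libraries. ACTB was at 6751, 6779.7 and 6771 CPM in the Scramble libraries and 3765, 3273 and 3183 CPM in the MEOX2 siRNA libraries. In both genes every control library was above every knockdown library, and replicate 1 was the highest of the knockdown libraries. On the higher side stood the transferrin receptor TFRC (0.63), LAMB3 (0.63), the helicase DDX21 (0.77), ERRFI1 (0.87), NDRG1 (1.14), CYR61 (1.92), the alanyl-tRNA synthetase AARS (1.21) and the metallothionein MT2A (1.14). CYR61, a secreted matricellular protein and YAP target also named CCN1, was at 276, 256 and 235 CPM in the Scramble libraries and 966, 1015 and 919 CPM in the MEOX2 siRNA libraries.

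**Figure D2:**
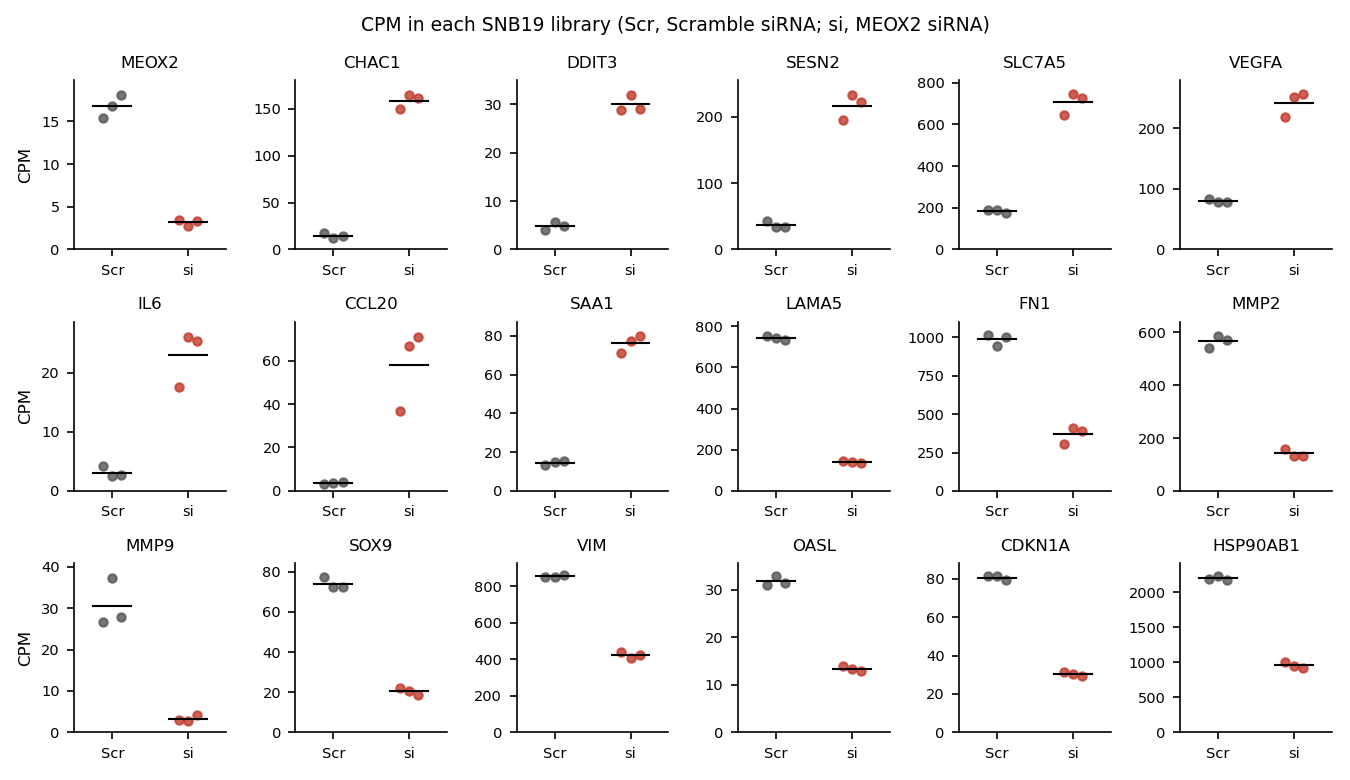
CPM in each library for MEOX2 and 17 other genes named in the text, with the 3 Scramble siRNA libraries (Scr, grey) and the 3 MEOX2 siRNA libraries (si, red) as points and the group mean as a bar, each panel with its own linear axis from 0. In each of the 18 genes the groups are apart, and for CCL20 and IL6 the lowest of the 3 knockdown values belongs to replicate 1.

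Nearly every tested gene of the ATF4 stress response was higher. Of 30 tested members, 29 rose and 0 fell, with 18 at 2-fold or more and a median of 1.22 against 0.006 over all genes. CHAC1, which degrades glutathione and is induced by ATF4, was at 17.3, 11.7 and 13.99 CPM in the Scramble libraries and 149.6, 165 and 162 CPM in the MEOX2 siRNA libraries, a log2 fold change of 3.46 ± 0.09 (SE). DDIT3, encoding the stress transcription factor CHOP, was at 3.97, 5.57 and 4.75 CPM in the Scramble libraries and 28.9, 31.9 and 29.05 CPM in the MEOX2 siRNA libraries. Each knockdown library of both genes exceeded every control library several times over. ASNS (asparagine synthetase) rose by 2.94 ± 0.34 and the secreted hormone gene FGF21 by 2.89 ± 0.48 from 0.186, 0.226 and 0.132 CPM, a level with few reads. SESN2 (sestrin 2), which restrains mTORC1 when amino acids are short, was at 42.1, 34.4 and 34.4 CPM in the Scramble libraries and 195, 233 and 222 CPM in the MEOX2 siRNA libraries. The groups did not overlap, and the list's most abundant member by CPM, SLC1A5, a glutamine carrier, rose by 1.12 ± 0.05. ATF4 itself, singled out after its values were seen, rose by 0.89 ± 0.05, and the member without a call was SLC1A4 at 0.11 ± 0.09.

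Genes that charge tRNAs and genes of nutrient carriers were also more often higher than lower. Among the cytosolic aminoacyl-tRNA synthetases, 14 of 20 rose and 0 fell (median 0.67), with 3 lower when MEOX2 siRNA replicate 1 was left out, led by AARS for alanine (1.21 ± 0.05), SARS for serine (1.04 ± 0.05), CARS for cysteine (1.02 ± 0.06) and GARS for glycine (0.94 ± 0.05). AARS was at 298, 319.7 and 303 CPM in the Scramble libraries and 677, 721 and 730.0 CPM in the MEOX2 siRNA libraries, with no overlap. The 6 without a call, listed after their values were seen, were the enzymes for histidine (HARS, -0.13), glutamine (QARS, -0.08), phenylalanine (the FARSA subunit, -0.07), threonine (TARS, -0.03), valine (VARS, -0.01) and aspartate (DARS, 0.13). Of 29 sugar, amino acid and other nutrient carriers 19 rose and 8 fell. This list shares members with the ATF4 list, SLC1A5 among them, so the counts are not separate. SLC7A5, the large neutral amino acid carrier LAT1, was at 191, 189 and 177 CPM in the Scramble libraries and 646, 746 and 727 CPM in the MEOX2 siRNA libraries, and SLC7A11, the cystine carrier, at 58.7, 54.9 and 49.4 CPM in the Scramble libraries and 153, 197 and 209.5 CPM in the MEOX2 siRNA libraries. Their groups were apart in every library, and the glucose carrier SLC2A3 rose by 1.46 ± 0.09, whereas SLC2A6 fell by 0.94. Translation factors moved less, with 18 of 35 higher, 8 lower and none at 2-fold (EIF3F 0.78, EIF2S2 0.63, EIF4A2 -0.52).

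The promoters of the stress genes were read for the C/EBP-ATF element, to which ATF4 is known to bind as a dimer with C/EBP proteins. The letters searched were TGATGNAA on both strands, in RefSeq windows from 250 bases before to 50 bases after each annotated start (GRCh38.p14). They occurred in 3.62% of all 35116 windows and, counted by gene, in 2.93% of the 11216 tested genes matched to a window. Of the ATF4 list, 24 members had a window and 9 held the element, and of the tRNA synthetases 16 had one and 7 held it. Among genes higher by 2-fold or more the share was 6.33%, and among those lower by 2-fold or more it was 3.01%. A match is a description of sequence and not a bound site. The stretches below show 6 of these elements, from genes that rose, each wholly before 1 annotated RefSeq start (genes have several starts, and those of CHAC1, ASNS, SLC1A5 and CEBPG lie inside the span of the gene in the files' annotation), and written 5′ to 3′ on the strand of the gene with the 8 bases of the element in capitals (in CHAC1, AARS and FGF21 the element reads on the opposite strand).
CHAC1 (chr15:40953251-40953280, plus strand): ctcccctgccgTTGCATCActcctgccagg
ASNS (chr7:97872458-97872487, minus strand): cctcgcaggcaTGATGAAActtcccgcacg
FGF21 (chr19:48755459-48755488, plus strand): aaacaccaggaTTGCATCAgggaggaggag
SLC1A5 (chr19:46784893-46784922, minus strand): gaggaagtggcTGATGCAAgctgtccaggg
CEBPG (chr19:33374060-33374089, plus strand): cgcgcggcgtcTGATGCAAcctgccggcaa
AARS (chr16:70289675-70289704, minus strand): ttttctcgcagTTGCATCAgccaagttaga
CHAC1 and AARS share the 8 letters TTGCATCA with FGF21, and their log2 fold changes were 3.46, 1.21 and 2.89. CEBPG, itself a C/EBP partner of ATF4 and chosen after its value was seen, rose by 0.87 ± 0.07.

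In the list that joins glycolysis with the hypoxia response, 25 of 39 genes were higher and 4 lower (median 0.32). The summed level of the list nevertheless was lower in every knockdown library. It was 22015, 22003 and 21789 CPM in the Scramble libraries and 20189, 19902 and 19734 CPM in the MEOX2 siRNA libraries. HILPDA, a lipid droplet protein, rose by 1.96 ± 0.12, STC2 (stanniocalcin 2) by 1.83 ± 0.08 and DDIT4, an mTORC1 inhibitor also named REDD1, by 1.65 ± 0.06. VEGFA, the main angiogenic growth factor, was at 84.01, 78.1 and 77.6 CPM in the Scramble libraries and 218, 252 and 257 CPM in the MEOX2 siRNA libraries, with no overlap. Among the glycolytic enzymes, PKM and GAPDH fell by 1.22 and 0.39, and ENO1, the list's most abundant member by CPM, was at 0.07 ± 0.04 without a call. Cholesterol synthesis went up in 15 of 24 members and down in 1, by small steps (median 0.28). HMGCS1, an early enzyme of the pathway, was at 70.9, 68.3 and 70.2 CPM in the Scramble libraries and 132, 169 and 153 CPM in the MEOX2 siRNA libraries, without overlap. Fatty acid genes went the other way, 3 of 26 higher and 12 lower. Those higher were 6 without MEOX2 siRNA replicate 1 and 8 with scaling by library totals alone. The desaturase FADS2 fell by 1.09 and the carnitine transferase CPT1A by 0.82, although FASN rose by 0.21. Of 6 tested metallothionein and zinc genes 5 rose, MT2A going from 326, 317 and 297 CPM to 703, 699 and 666 CPM, and the zinc importer SLC39A10 fell by 0.88.

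Inflammatory genes moved in both directions. Of 34 NF-kB and cytokine genes, 16 were higher (8 by 2-fold or more) and 10 lower (4). CCL20, a chemokine for CCR6-bearing lymphocytes, was at 3.17, 3.69 and 4.03 CPM in the Scramble libraries and 36.6, 66.9 and 70.9 CPM in the MEOX2 siRNA libraries. IL6 was at 4.22, 2.49 and 2.64 CPM in the Scramble libraries and 17.7, 26.1 and 25.4 CPM in the MEOX2 siRNA libraries, and IL1A at 4.41, 3.54 and 4.03 CPM in the Scramble libraries and 28.2, 37.4 and 42.7 CPM in the MEOX2 siRNA libraries. All 3 cytokines were low in every control library and their groups did not overlap, replicate 1 of the knockdown being the lowest of its arm in each. IL24 rose by 2.51 ± 0.15. On the lower side stood the chemokines CCL5 (fell by 2.44, under 3 CPM in every library) and CX3CL1 (fell by 1.36), the adaptor TRAF1 (fell by 1.35, 139.7, 146 and 156 CPM against 49.3, 66.2 and 58.2 CPM) and TNFAIP2 (fell by 1.16). NFKB2, the most abundant of the list by CPM, rose by 0.32 ± 0.05. The acute phase and complement list had 10 of 17 higher and 4 lower. The latter were 2 without Scramble replicate 3 or MEOX2 siRNA replicate 1, and 2 with scaling by library totals alone. SAA1 (serum amyloid A1) was at 13.2, 14.7 and 15.4 CPM in the Scramble libraries and 71.1, 77.4 and 79.8 CPM in the MEOX2 siRNA libraries, and SAA2, which shares sequence with it, went from 0.869, 0.527 and 1.06 CPM to 13.4, 19.3 and 18.996 CPM. Complement factor B (CFB) rose by 2.24 ± 0.28 at a low level, while C3, the highest of the list in CPM, fell by 0.18 and lost its call with scaling by library totals alone.

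The kappa-B element, the NF-kB binding sequence, was searched on both strands of the same windows. It was in 1.91% of all windows and in 2.80% of matched tested genes. Of the 24 NF-kB list genes with a window 11 held it, namely 7 of 12 that rose, 1 of 6 that fell and 3 of 6 without a call (CXCL3, NFKBIA and TNFAIP3, named after their values were seen). The elements of 3 of the genes that rose and of the gene that fell are shown, CXCL2 and BIRC3 having been chosen after their values were seen, with the 10 bases in capitals (CCL20 and BIRC3 hold it on the opposite strand).
CCL20 (chr2:227813752-227813781, plus strand): ttgatcaatggGGAAAACCCCatgtggcaa
IL6 (chr7:22727116-22727145, plus strand): ttatcaaatgtGGGATTTTCCcatgagtct
CXCL2 (chr4:74099255-74099284, minus strand): tctggagctccGGGAATTTCCctggcccgg
BIRC3 (chr11:102317274-102317303, plus strand): ttttgggtcatGGAAATCCCCgagtgggtt
CXCL2 rose by 2.27 ± 0.15 and BIRC3, an inhibitor of apoptosis and known NF-kB target, fell by 0.51. The windows of genes that moved in opposite directions thus held these letters, which for CCL20, IL6 and CXCL2 lie inside the span of the gene and for BIRC3 before it.

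Immediate early genes and other known ERK outputs were mostly higher. Of 39 members of the ERK output and immediate early list, 25 rose and 8 fell, 10 and 1 of them by 2-fold or more. The orphan receptors NR4A3 and NR4A2 rose by 2.40 ± 0.36 and 1.53 ± 0.19, and KLF2, a zinc finger factor, by 1.86 ± 0.09. DUSP5, a nuclear ERK phosphatase, was at 86.8, 89.1 and 84.6 CPM in the Scramble libraries and 237, 260.2 and 248 CPM in the MEOX2 siRNA libraries, without overlap. DUSP4, another ERK phosphatase, moved the opposite way and fell by 1.13, as did CCND1 (cyclin D1, fell by 0.85). MYC, a growth-promoting transcription factor, was at 78.7, 76.7 and 71.5 CPM in the Scramble libraries and 184, 216 and 178 CPM in the MEOX2 siRNA libraries, again without overlap. Receptor tyrosine kinases and their ligands were lower in 26 of 50 and higher in 11. The insulin-like growth factor binding proteins split, with IGFBP3 (1.38) and IGFBP4 (1.28) higher and IGFBP5 and IGFBP2 lower (fell by 1.72 and 1.19). VEGFC, which acts on lymphatic vessels, fell by 1.23, opposite to VEGFA. The receptor NTRK3 rose by 1.34 ± 0.24 from a low level.

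Genes of the extracellular matrix were mostly lower. Of 43 collagens and matrix proteins, 30 fell, 12 of them by 2-fold or more, and 4 rose (median -0.61). LAMA5, a laminin chain of basement membranes, was at 752, 742 and 734 CPM in the Scramble libraries and 145, 139 and 135 CPM in the MEOX2 siRNA libraries. LOXL1, which crosslinks elastin and collagen, was at 238, 254 and 245 CPM in the Scramble libraries and 54.5, 43.98 and 42.5 CPM in the MEOX2 siRNA libraries, and FN1 (fibronectin) at 1015, 944 and 1003 CPM in the Scramble libraries and 305, 407 and 389.8 CPM in the MEOX2 siRNA libraries. In all 3 genes every knockdown library was below every control library. COL6A1 fell by 1.66 ± 0.05 and the proteoglycan VCAN by 1.85 ± 0.08. The list members that rose were FBN2 (0.99), the crosslinking enzyme LOX (0.66), SPP1 (0.50) and COL1A1 (0.46), so LOX and LOXL1 moved in opposite directions. The list does not hold every collagen, and outside it COL9A3, COL4A3 and COL24A1, looked up after their values were seen, rose by 0.63, 0.97 and 2.36.

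Matrix proteases and adhesion genes were also more often lower than higher. Of 24 matrix proteases and plasminogen genes 13 fell and 5 rose. MMP9 (gelatinase B) was at 26.6, 37.2 and 27.8 CPM in the Scramble libraries and 3.02, 2.71 and 4.20 CPM in the MEOX2 siRNA libraries, and MMP2 (gelatinase A) at 539, 588 and 573 CPM in the Scramble libraries and 158, 134 and 134 CPM in the MEOX2 siRNA libraries. Both gelatinases were lower in every knockdown library, MMP14, which activates pro-MMP2, fell by 0.91 and BMP1, a procollagen protease, by 1.66. MMP3 and ADAMTS1 rose by 0.90 and 1.54 at low levels. In the focal adhesion list, 28 of 44 fell (11 by 2-fold or more) and 7 rose (4 without MEOX2 siRNA replicate 3). The integrins ITGA11 and ITGB8 fell by 1.78 and 1.74, the actin crosslinkers FLNC and FLNA by 1.38 and 1.21, and the tensin TNS1 by 1.36. FLNA was at 5962, 5863 and 5887 CPM in the Scramble libraries and 2517, 2582 and 2558 CPM in the MEOX2 siRNA libraries, while the focal adhesion kinase PTK2 rose by 0.36 ± 0.05. Among 48 actin, SRF and YAP genes, 26 fell and 14 rose. TPM1 (tropomyosin 1), at 239.9, 241 and 241 CPM in the controls and 99.8, 87.3 and 92.7 CPM in the knockdown, and RHOC (fell by 1.30) were lower, whereas the YAP targets CYR61 and ANKRD1 rose by 1.92 and 2.80 and TPM4 by 0.88.

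**Figure D3:**
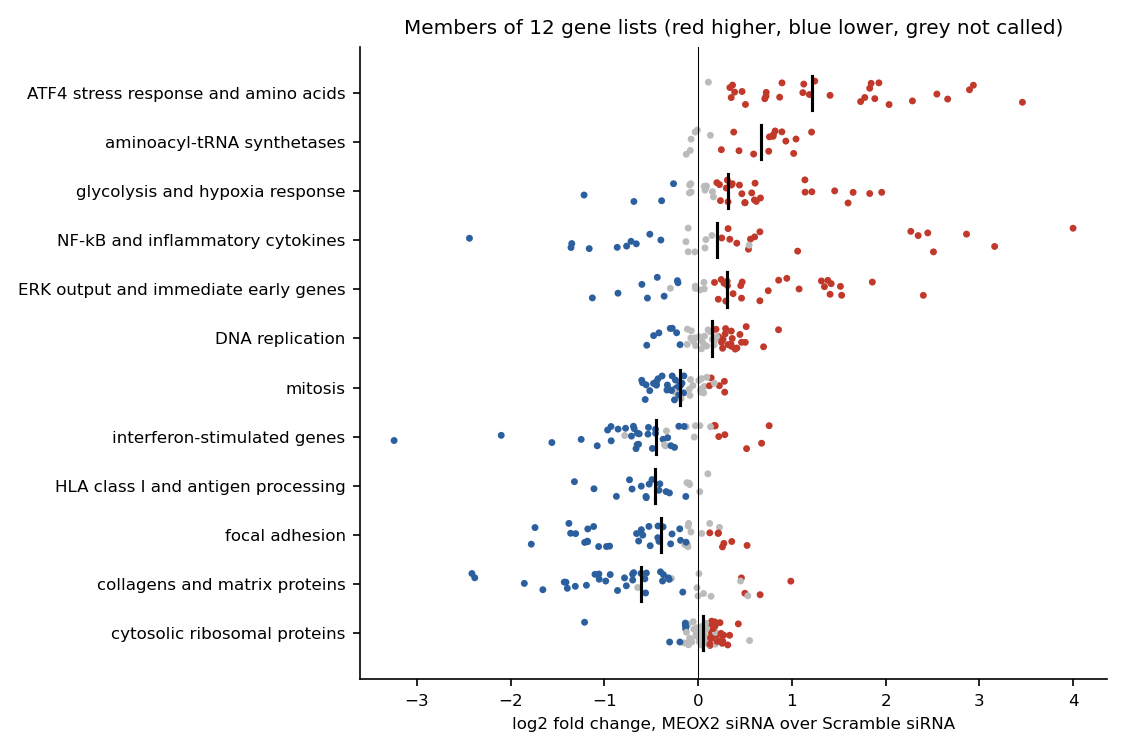
Log2 fold change of each tested member of 12 gene lists, with one point a gene coloured by its call and a black bar at the list's median. All 30 ATF4 members lie right of 0, the matrix and focal adhesion members mostly left, and all replication and mitosis members within 1 of 0.

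In the mesenchymal transition list, which holds epithelial as well as mesenchymal genes, 15 of 26 were lower and 7 higher, and the 2 that rose by 2-fold or more, CLDN1 and CDH1, are epithelial genes. CHI3L1, a glioma-secreted glycoprotein, was at 472, 503 and 490.5 CPM in the Scramble libraries and 188, 181 and 168 CPM in the MEOX2 siRNA libraries, and S100A4 fell by 1.37 ± 0.10. VIM (vimentin) was at 849.9, 854 and 861 CPM in the Scramble libraries and 439, 408 and 424 CPM in the MEOX2 siRNA libraries, so the groups were apart by about 2-fold. The epithelial junction genes CLDN1 and CDH1 rose, CLDN1 from 7.33, 8.28 and 8.05 CPM to 26.5, 36.7 and 40.7 CPM and CDH1 from 1.49, 0.904 and 0.990 CPM to 4.21, 4.26 and 4.40 CPM, the latter a low level in both arms. All 6 tested members of the glial and glioma marker list fell, 5 of them by 2-fold or more, and their summed level was 1398, 1389 and 1401 CPM against 696, 679 and 672 CPM, with VIM the most abundant. SOX9, a glial lineage factor, was at 77.4, 72.2 and 72.3 CPM in the Scramble libraries and 22.2, 20.6 and 18.6 CPM in the MEOX2 siRNA libraries, and SOX4 and the intermediate filament gene NES (nestin) fell by 1.29 and 1.20. In the list of SOX factors and glioma stem markers 12 of 21 fell and 6 rose, the latter with SALL2 (1.09) and, under 3 CPM, PROM1 (1.76).

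Markers of other cell types moved too, and their part in the results was not tested. Of 6 endothelial markers 5 were tested and 3 fell, their summed level going from 48.2, 43.6 and 48.6 CPM to 13.1, 11.2 and 11.8 CPM. PECAM1, the most abundant of them, was at 32.8, 32.9 and 36.5 CPM in the Scramble libraries and 6.54, 4.40 and 5.64 CPM in the MEOX2 siRNA libraries, and CDH5 (VE-cadherin) at 4.53, 3.77 and 4.75 CPM in the Scramble libraries and 0.377, 0 and 0.0688 CPM in the MEOX2 siRNA libraries, with 1 knockdown library at 0, while CLDN5 did not pass the filter. Of 8 microglia markers CSF1R and ITGAM were tested, AIF1, CX3CR1, P2RY12, PTPRC and CD68 being at or near 0. CSF1R, the most abundant, fell by 1.69 ± 0.13, and the summed level of the list was 20.7, 24.2 and 24.4 CPM against 9.74, 8.05 and 10.05 CPM. Of the fibroblast markers COL1A1 rose and PDGFRB fell by 0.27, and of the neuron markers SYT1 rose by 0.61, RBFOX3 and SNAP25 fell by 1.32 and 0.61, and MAP2, the most abundant, had no call. Of the falls in the neuron list, 1 was left when any library other than Scramble replicate 2 was left out. Scaling by library totals alone also left 1. Without MEOX2 siRNA replicate 2 the fibroblast list had 2 higher. The summed level was 82.3, 97.4 and 88.2 CPM against 106, 95.1 and 98.1 CPM for fibroblast and 61.5, 54.3 and 57.3 CPM against 51.3, 56.4 and 56.99 CPM for neuron markers. OLIG2, the most abundant oligodendrocyte marker, rose by 0.50 ± 0.17, a call lost without Scramble replicate 3 or MEOX2 siRNA replicate 2, with MOG, MAG and SOX10 at or near 0 and summed levels of 6.21, 6.55 and 7.52 CPM against 7.92, 8.86 and 6.75 CPM. In bulk RNA fewer cells of a type and less RNA per cell cannot be told apart.

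Homeobox genes, the family of MEOX2, were mostly lower outside the HOX clusters. There 28 of 49 fell, 9 by 2-fold or more and MEOX2 among them, and 5 rose (3 without MEOX2 siRNA replicate 2). MEOX1, the paralogue of MEOX2, was at 8.32, 9.71 and 8.25 CPM in the Scramble libraries and 2.77, 1.49 and 2.06 CPM in the MEOX2 siRNA libraries, so it was lower in every knockdown library. DLX3 and SIX2 fell by 2.15 and 1.52 at low levels, and TGIF2 and ONECUT2 rose by 0.70 and 0.67. Of 25 HOX cluster genes 8 fell, among them HOXA7 and HOXC6 (by 0.92 and 0.66), and the single riser was HOXB9 at 13.8, 14.2 and 14.9 CPM in the Scramble libraries and 38.6, 46.8 and 45.4 CPM in the MEOX2 siRNA libraries, without overlap. Signalling lists of development had small net falls. Notch and Wnt genes were lower in 14 of 42 and higher in 4, with LFNG, a Notch glycosyltransferase, at 43.8, 50.1 and 46.4 CPM against 14.1, 10.7 and 8.33 CPM and the Wnt feedback gene AXIN2 falling by 1.46. In the TGF-beta and BMP list 16 of 33 fell (BMPR2 by 1.32, ID2 by 1.09) and 6 rose, INHBA by 1.79 ± 0.27. Axon guidance genes were lower in 15 of 38, with NRP1 (neuropilin 1) at 148, 146 and 154 CPM against 49.5, 48.2 and 44.5 CPM, and higher in 5 (3 without MEOX2 siRNA replicate 2). Ion channels were lower in 16 of 29 (KCNN3 by 1.58) and higher in 5 (KCNJ2, 0.81). Those higher were 3 without Scramble replicate 1 or 3 or MEOX2 siRNA replicate 3, and 8 with scaling by library totals alone.

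Since homeodomains bind AT-rich elements, the core letters TAATTA were searched in the promoter windows on both strands. They were in 4.84% of all windows and, counted by gene, in 3.07% of the 11216 matched tested genes. Of matched genes that rose, 2.89% held them, of those that fell 2.92% and of those without a call 3.29%. At 2-fold or more the shares were 22 of 490 (4.49%) among higher and 17 of 499 (3.41%) among lower genes. These shares are a description of letters in a window, and nothing about binding is drawn from them.

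Interferon and antigen presentation genes were lower. Of 46 interferon-stimulated genes 29 fell and 7 rose, or 4 without Scramble replicate 1 (median -0.45). OASL was at 31.1, 32.98 and 31.5 CPM in the Scramble libraries and 13.9, 13.4 and 12.9 CPM in the MEOX2 siRNA libraries, and MX2 at 5.46, 3.84 and 4.69 CPM in the Scramble libraries and 0.503, 0.947 and 1.86 CPM in the MEOX2 siRNA libraries, with no overlap in either. IFI27 fell by 1.56 ± 0.23 and TRIM22 by 3.24 ± 0.54, the latter under 2 CPM in every library. MX1 rose by 0.76, opposite to MX2, and so did IFITM3 (0.68) and IFITM2 (0.52), which share sequence and whose reads may be split by counting. In the HLA class I and antigen processing list 15 of 20 fell and 0 rose. HLA-B was at 182, 189 and 177 CPM in the Scramble libraries and 98.2, 100.3 and 101 CPM in the MEOX2 siRNA libraries, B2M, the light chain of class I, fell by 0.52 ± 0.05, and the immunoproteasome subunits PSMB10 and PSMB9 fell by 1.32 and 0.73. Sensors of nucleic acid and RNA interference genes moved both ways (7 of 23 higher, 10 lower): MYD88 and IKBKE fell by 1.01 and 0.68, while XPO5, TBK1, TMEM173 (STING) and TICAM1 rose by 0.59, 0.50, 0.44 and 0.34. Both arms had received siRNA.

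Cell cycle genes shifted by small amounts, in opposite directions for S phase and mitosis. Of 47 DNA replication genes 21 rose and 7 fell (median 0.15), and of 46 mitosis genes 5 rose and 26 fell (median -0.19). Without Scramble replicate 3 the replication genes that fell were 4, and without Scramble replicate 1 or 2 the mitosis genes that rose were 3. With scaling by library totals alone the replication genes that fell were 4 and the mitosis genes that rose were 8. No member of either list changed by 2-fold. CDT1, which licenses origins, was at 69.98, 69.4 and 66.3 CPM in the Scramble libraries and 127, 126 and 119 CPM in the MEOX2 siRNA libraries, and MCM3, a helicase subunit, rose by 0.50 ± 0.05, while RRM2 (ribonucleotide reductase) fell by 0.55. CCNB1 (cyclin B1) was at 442, 428 and 443 CPM in the Scramble libraries and 305, 277 and 283 CPM in the MEOX2 siRNA libraries, with no overlap, and ANLN, CDC25B and TTK fell by 0.59, 0.56 and 0.55, whereas AURKB and ESPL1 rose by 0.28 and 0.28. The replication-dependent histones, which share sequence and normally are without a poly(A) tail, were lower in 9 of 18 and higher in 0, HIST1H1C falling by 0.60. Of 25 growth arrest and G1 genes 14 fell and 8 rose. TOB1, an antiproliferative gene, fell by 1.61 ± 0.10, and CDK6, MXD1 and BTG2 rose by 0.56, 0.67 and 0.79.

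The p53 targets did not move as a block, with 11 of 24 higher and 9 lower. CDKN1A (p21) was at 81.2, 81.4 and 79.1 CPM in the Scramble libraries and 31.5, 30.4 and 29.6 CPM in the MEOX2 siRNA libraries, and TP53INP1 and SESN1 fell by 1.40 and 1.11. By contrast GDF15 was at 30.99, 35.4 and 29.4 CPM in the Scramble libraries and 76.6, 96.2 and 94.4 CPM in the MEOX2 siRNA libraries and SESN2, also an ATF4 target, rose as given above. CDKN1A and GDF15 therefore moved in opposite directions without overlap in either. Apoptosis genes were likewise mixed (11 of 36 higher, 14 lower). The BH3-only gene BMF fell by 2.17 ± 0.17 and BBC3 (PUMA) rose by 0.85 ± 0.10.

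Housekeeping complexes had medians near 0 and, in 3 of them, a single member that fell by 2-fold or more. Of 78 cytosolic ribosomal proteins 25 rose and 7 fell, the median being 0.06, and with library totals alone 45 rose and 3 fell. Those that rose were 10 without Scramble replicate 1 or 3, and those that fell were 22 without MEOX2 siRNA replicate 1 and 3 without Scramble replicate 1 or 2 or MEOX2 siRNA replicate 2 or 3. The only one to change by 2-fold was RPS23, at 39.99, 41.6 and 41.1 CPM in the Scramble libraries and 17.3, 15.97 and 19.8 CPM in the MEOX2 siRNA libraries, which has processed pseudogenes that can share its reads. Of 52 nuclear respiratory chain genes 21 rose and 7 fell, and the ATP synthase gamma subunit ATP5F1C stood alone at 126, 129.8 and 132 CPM in the Scramble libraries and 57.1, 48.9 and 50.7 CPM in the MEOX2 siRNA libraries. The 47 spliceosome and RNA-binding genes split into 17 higher and 18 lower, a balance that turned to 20 and 15 with scaling by library totals alone, and U2AF2, which binds the polypyrimidine tract, was at 407, 428 and 413 CPM in the Scramble libraries and 188, 162 and 158 CPM in the MEOX2 siRNA libraries. In these 3 genes the knockdown libraries lay below every control library. Proteasome subunits had 9 of 31 higher and 1 lower, the latter being PSMC6 (-0.33), and PSMD14 was at 0.27. The higher ones were 3 without Scramble replicate 1, 4 without Scramble replicate 3 and 18 with library totals alone, and the lower ones 7 without MEOX2 siRNA replicate 1. With all 10 libraries in 1 fit, 0 proteasome subunits rose and 0 fell, and of the ribosomal proteins 0 rose and 1 fell. Mitochondrially encoded genes had 5 of 12 lower (MT-CO3 by 0.28) and 2 higher. Those higher were 1 without Scramble replicate 1 or 2 or MEOX2 siRNA replicate 3, and 4 with library totals alone.

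Protein folding genes did not share the direction of the ATF4 list. Of 26 ER chaperone and unfolded protein response genes 6 rose and 11 fell, which became 9 and 7 with library totals alone, with HERPUD1, XBP1 and HSPA5 (BiP) higher by 1.12, 0.91 and 0.55 and CANX (calnexin) at -0.49, also a call. Heat shock proteins were higher in 7 of 21 and lower in 10. HSP90AB1 was at 2182, 2233 and 2169 CPM in the Scramble libraries and 999, 948 and 918 CPM in the MEOX2 siRNA libraries, HSPA1B, which shares reads with HSPA1A, fell by 1.97, DNAJB1 by 1.20 and HSPB1 by 1.07, whereas HSP90AA1, the inducible HSP90 gene, rose by 0.14 ± 0.05. The NRF2 targets were split (10 of 26 higher, 12 lower), KEAP1 falling by 1.00 and NFE2L2 (NRF2) rising by 0.60. Lysosome genes were lower in 27 of 47, led by CTSS, CTSK and IDUA (fell by 2.40, 1.38 and 1.32), and higher in 10 (6 without Scramble replicate 1), among them SGSH (0.82), PPT1 (0.70) and CTSL (0.66). Cathepsins S and L thus moved in opposite directions. Autophagy genes changed little, with 11 of 26 higher and 5 lower (ATG7 0.48).

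Noncoding classes had more higher than lower calls. Protein-coding genes, 12872 of those tested, were called higher in 27.1% and lower in 32.1%, an order that turned with library totals alone (4315 genes higher and 3438 lower). Intergenic long noncoding RNAs (lncRNAs) were higher in 34.96% and lower in 14.3% of 698, and antisense lncRNAs in 29.02% and 7.55% of 834. Pseudogenes were higher in 25.2% and lower in 11.5% of 663. Noncoding genes are less abundant, so the classes were set side by side within 1 to 10 CPM. There 22.03% of 2705 protein-coding genes were higher and 24.1% lower, against 32.5% and 13.9% of 452 intergenic and 29.98% and 8.19% of 537 antisense lncRNAs. The share of all counts in intergenic lncRNAs was 0.360, 0.363 and 0.382% in the Scramble libraries and 0.456, 0.482 and 0.482% in the MEOX2 siRNA libraries, and in antisense lncRNAs 0.278, 0.279 and 0.294% and 0.359, 0.377 and 0.385%. Every knockdown library was above every control library for both. The library kit that the labels name (NEBNext Ultra RNA) does not mark strand, so reads of an antisense gene and of its partner cannot be told apart.

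Individual noncoding genes moved strongly. SLC7A11-AS1, named as antisense to SLC7A11, rose by 3.45 ± 0.37, together with its partner. DNAJC9-AS1 was at 1.12, 0.828 and 1.06 CPM in the Scramble libraries and 5.34, 4.87 and 5.92 CPM in the MEOX2 siRNA libraries, and DNAH10OS at 2.86, 2.86 and 1.98 CPM in the Scramble libraries and 0.0628, 0 and 0.344 CPM in the MEOX2 siRNA libraries, without overlap in either. The intergenic LINC02577 rose by 2.59, and LINC00173, of the other lncRNAs (27.5% of 331 higher, 10.6% lower), by 2.12. Of 34 snoRNA hosts and abundant noncoding RNAs 20 rose and 5 fell. MIR210HG, host of the hypoxia-linked miR-210 gene, rose by 1.23 ± 0.14, SNHG4 by 0.90 and the paraspeckle RNA NEAT1 by 0.49, while MIR22HG and MALAT1 fell by 1.35 and 0.53.

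The zinc finger genes named ZNF were mostly higher among those called, a family chosen after its values were seen. Of 443 tested protein-coding ZNF genes 216 rose (48.8%) and 42 fell (9.48%), 45 and 1 of them by 2-fold or more. Many ZNF genes encode KRAB repressors of transposable elements and stand in clusters on chromosome 19. On that chromosome 125 of 221 rose and 11 fell (median 0.43), and elsewhere 91 of 222 rose and 31 fell (median 0.20). The 774 other protein-coding genes of chromosome 19 were higher in 27.5% and lower in 33.1%, near the background. ZNF678 (chromosome 1) was at 7.39, 8.06 and 6.40 CPM in the Scramble libraries and 17.8, 24.7 and 26.4 CPM in the MEOX2 siRNA libraries, and ZNF233 (chromosome 19) at 2.42, 2.94 and 2.24 CPM in the Scramble libraries and 9.17, 9.13 and 11.1 CPM in the MEOX2 siRNA libraries. Their groups did not overlap, and in ZNF678 knockdown replicate 1 was the lowest of its arm. The summed level of all tested ZNF genes was 7404, 7349 and 7525 CPM against 8399, 9029 and 8925 CPM, so the rise was present in every knockdown library. Within 1 to 10 CPM 48.99% of ZNF genes rose against 19.9% of other protein-coding genes. Clustered ZNF genes share sequence, and how reads matching several of them were counted is not stated.

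The SNB19 calls were set beside the opposite manipulation in U87, where the vector samples stood apart from each other. U87 empty vector replicate 1 had a Pearson r of 0.910 with replicate 2 across the log2 CPM of tested genes (genes are not independent replicates), against 0.991 between the MEOX2 overexpression samples, and replicate 2 had an r of 0.941 and 0.942 with the overexpression samples. With this spread edgeR called 0 of 14180 genes at FDR 0.05 (0%), 2643 having an unadjusted p under 0.05, and DESeq2 called 991 (6.99%). Without empty vector replicate 1 edgeR called 7052 U87 genes, and without replicate 2 it called 10616. Of 12994 genes tested in both lines, 604 were called by DESeq2 in U87 and by edgeR in SNB19, which is 71.1% of the U87 and 8.01% of the SNB19 calls among them, beside the 58.0% and 6.53% of all 12994 genes that were called in SNB19 and in U87. Of the shared calls 452 had the same sign under the opposite manipulations and 152 the opposite sign, counts that rest on how U87 was tested. Since edgeR called no U87 gene, not even the overexpressed MEOX2, single genes are given with the DESeq2 adjusted p. LAMA5, lower after knockdown in SNB19, had a U87 log2 difference of -2.95 ± 0.41 with overexpression (edgeR estimate, DESeq2 adjusted p = 3.14e-07), and CHAC1, higher after knockdown, one of 1.79 ± 0.29 (DESeq2 adjusted p = 0.00496). In U87 these 2 genes had the same sign as in SNB19. CTSS (2.08 ± 0.26), ANGPTL4 (-3.61 ± 0.65) and IL11RA (-2.67 ± 0.55) had the opposite sign, with DESeq2 adjusted p = 0.000258, 1.45e-06 and 0.00595. The study had picked CTSS, ANGPTL4 and IL11RA from these same libraries for strong changes in opposite directions in the 2 lines. Their opposite signs and small p-values therefore follow from that choice and are no separate evidence.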

How the data were processed

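Total RNA from 6 SNB19 and 4 U87 samples had been sequenced as poly(A) libraries. The authors deposited whole-number read counts per gene and FPKM values made from them, and the submitters' processing notes name HISAT2, HTSeq 0.11.2, DESeq2 1.26.0 and GRCh38. The counting settings and annotation are not given in the sources used here. Gene classes were taken from GENCODE 29, to which all 34567 identifiers matched. The deposited FPKM were read but no test used them. Counts of the 6 SNB19 libraries were filtered (filterByExpr, minimum count 10), scaled by TMM and tested with edgeR 4.0.16 (quasi-likelihood F test, Benjamini-Hochberg, FDR 0.05) in R 4.3.3, with the SE taken as the log2 fold change over the root of F. The biological coefficient of variation was 0.0551. Alternatives were DESeq2 1.42.0, other scaling and filters, a replicate block, all 10 libraries in 1 fit and leaving out each library. The fit was also run on simulated counts of 15059 genes. It recovered 20 of 50 genes changed 1.25-fold, 41 of 49 at 1.5-fold, 41 of 49 at 2-fold and 50 of 50 at 4-fold. There were 11 false calls. Few genes were changed there, equally up and down, unlike in these data, so the scaling was not tested by it. Named genes were MEOX2, CTSS, ANGPTL4 and IL11RA, the 12 largest changes each way with mean CPM of at least 5 and groups apart, the 8 most abundant each way changed at least 1.5-fold, up to 4 called members each way and the most abundant of each list, up to 3 of each noncoding class each way, and glial markers. The genes and lists were chosen with earlier results of these data known. Lists were described by counts and medians, without a set test. Some genes are in several lists (CD44 in the mesenchymal, stem and glial marker lists), so the lists are not independent. Promoter windows are from RefSeq. A few named genes are not reported here.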

Additional observations from a re-analysis of the deposited data

How the results depend on the processing

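No gene called in SNB19 changed sign in any SNB19 alternative. With all 10 libraries in 1 fit, in which the spread of the U87 libraries enters, there were 1277 genes higher and 1589 lower, and 574 and 643 at 2-fold; the cause was not tested. Of 112 counts of called members in lists and classes, those that moved by over 1.5 times were 89 in that fit, 11 with library totals alone, 4 with DESeq2, 4 with no low-count filter, 1 with a mean of at least 1 CPM, 1 with the replicate block, 9, 3 and 7 without Scramble replicates 1, 2 and 3, and 6, 6 and 5 without MEOX2 siRNA replicates 1, 2 and 3. Leaving out 1 SNB19 library gave 3703 to 4440 genes higher and 3959 to 4662 lower, and at 2-fold 835 to 977 and 813 to 928. DESeq2 gave 3841 higher and 4048 lower, and scaling by library totals alone 5173 and 3689, so that 58.4% of calls were higher against 49.1%, with the median of all genes at 0.082. That scaling put cytosolic ribosomal proteins at 45 higher and 3 lower. The replicate block gave 4194 higher and 4407 lower. Same-numbered samples had deviation correlations of 0.003, -0.012 and 0.058, and other pairs across the arms ran from -0.066 to 0.062. With 3 samples an arm these values cannot decide whether the numbers pair the samples. Among the named genes, those that changed sign were 3 without a call, and the sign of unnamed genes without a call was not followed: with library totals RPLP0 was at 0.055, HNRNPA2B1 at 0.031 and PSMD2 at 0.032, and over the fits leaving out a library RPLP0 ran from -0.082 to 0.015, with 0.014 without MEOX2 siRNA replicate 3. In U87, with alternatives chosen after seeing the data, edgeR called 0 genes, DESeq2 991, and edgeR without 1 library 38 to 10616, where the lone sample of an arm is assumed to vary like the other arm; without MEOX2 overexpression replicate 1 it was 41 and without empty vector replicate 1 it was 7052.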
